A study of Mus musculus with 12 samples.

Results

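The genes described here are 39 genes of sugar breakdown and of the response to low oxygen, out of 24421 gene symbols measured by RNA sequencing in RAW 264.7 cells, a mouse macrophage line of BALB/c strain. They were chosen by symbol. The glycolysis group has 20 genes: the glucose transporter Slc2a1, the hexokinases Hk1, Hk2 and Hk3, the enzymes from Gpi1 to Ldha, the regulators Pfkfb3 and Pfkfb4, and the lactate exporter Slc16a3. The hypoxia group has 19 genes: Hif1a, the oxygen sensors Egln1 and Egln3, and targets of hypoxia-inducible factor (HIF). Every listed symbol was found, and 37 of the 39 genes passed the filter on low values (at least 1 CPM in at least 2 libraries, where CPM is counts-per-million, a gene's reads scaled to the library's reads in genes). Egln3 and P4ha2 had 0 or 1 read in each library and were not tested.

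Cells were wild type (WT) or Parp14 -/- (knockout, KO). WT cells had no treatment, or had LPS (lipopolysaccharide, from the outer wall of bacteria), a Jak inhibitor or both agents for 2 h. KO cells were untreated or had LPS for 2 h, and each of the 6 groups had 2 libraries. The labels name neither the inhibitor nor the number of KO clones, and they do not say whether libraries came from separate cultures, so the p-values rest on the spread of these libraries alone, which may be technical.

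Libraries held 35940669 to 45662896 reads in genes. The targeted gene was checked first: Parp14 stood at 76.4 and 99.7 CPM in untreated WT libraries, 315 and 419 CPM in WT libraries with LPS, 10.0 and 11.97 CPM in untreated KO libraries and 34.9 and 40.5 CPM in KO libraries with LPS. Its transcript was therefore low but still present in the KO, at 12.5% of the WT level when untreated. With the inhibitor, Parp14 was at 74.7 and 102 CPM, and with LPS and the inhibitor at 110 and 138 CPM. Of 11 macrophage markers in the table, 10 reached 1 CPM, and their summed level ran from 11428 to 15247 CPM over all libraries. No marker of lymphocytes (8 genes) or of fibroblasts, epithelium and endothelium (9 genes) reached 1 CPM. LPS lowered the median of all tested genes by the CPM measure, with a shift of -0.30 in WT and -0.29 in KO on the log2(CPM + 1) scale. After rescaling by the median of gene ratios the shifts were -0.04 and -0.03. Directions can therefore differ between the scalings, and both are given for some of the genes concerned only.

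Glycolysis splits glucose into pyruvate, which is either oxidised in mitochondria or turned into lactate and exported. HIF is a pair of proteins, of which the HIF-1 alpha subunit (gene Hif1a) is hydroxylated by the Egln enzymes when oxygen is present and is then destroyed. When it is stable it binds a short DNA core and raises genes for glucose uptake, glycolysis, blood vessel growth and mitochondrial control, and macrophages given LPS are known for raising glucose uptake and Hif1a with oxygen present.

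That HIF core is spelled ACGTG or GCGTG, and both spellings were searched on both strands in the 250 bases before each RefSeq start site (GRCm38.p6 table). Of the 39 genes, 36 had at least 1 window, which gave 53 windows, and Bnip3l, Ndrg1 and Plod2 had none. The motif was in 81.1% of the members' windows and in 38.6% of the 32851 windows of all promoters. It was in 79.3% of the glycolysis windows and 83.3% of the hypoxia windows. Genes that rose with LPS in WT cells had it in 81.8% of 11 windows and genes that fell in 72.2% of 18 windows. The members' windows were also rich in CpG, with a median of 17 CpG dinucleotides against 6 over all windows, and a median of 62.8% against 52.4% G and C; the part of base composition in the motif share was not tested. A CACGTG, which reads the same on both strands and counts as 2 matches, was in 9.43% of the members' windows and 6.02% of all. The stretches outside annotated exons are shown for 5 genes with differing behaviour under LPS, with the motif in capitals, 5′ to 3′ on the strand of the gene. Slc2a1 and Adm rose, and Pdk1 and Bnip3 fell. Pgk1, a textbook HIF target, was not called by the CPM measure but was called higher after rescaling by the median of gene ratios.
Slc2a1, chr4:119108495-119108710, plus strand: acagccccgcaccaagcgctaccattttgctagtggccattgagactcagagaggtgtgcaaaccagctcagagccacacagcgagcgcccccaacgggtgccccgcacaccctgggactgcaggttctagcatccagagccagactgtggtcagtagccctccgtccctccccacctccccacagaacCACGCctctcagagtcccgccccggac
Adm, chr7:110627407-110627656, plus strand: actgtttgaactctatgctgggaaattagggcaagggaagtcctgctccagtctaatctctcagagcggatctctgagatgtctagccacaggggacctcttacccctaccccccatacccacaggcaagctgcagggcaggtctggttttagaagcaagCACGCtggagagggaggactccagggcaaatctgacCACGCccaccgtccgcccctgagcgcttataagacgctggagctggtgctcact
Pdk1, chr2:71872974-71873223, plus strand: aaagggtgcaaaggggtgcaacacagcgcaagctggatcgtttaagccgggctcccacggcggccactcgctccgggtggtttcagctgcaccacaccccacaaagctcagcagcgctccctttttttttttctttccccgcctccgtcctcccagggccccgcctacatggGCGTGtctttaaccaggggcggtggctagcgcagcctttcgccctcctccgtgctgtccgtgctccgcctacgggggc
Bnip3, chr7:138909520-138909756, minus strand: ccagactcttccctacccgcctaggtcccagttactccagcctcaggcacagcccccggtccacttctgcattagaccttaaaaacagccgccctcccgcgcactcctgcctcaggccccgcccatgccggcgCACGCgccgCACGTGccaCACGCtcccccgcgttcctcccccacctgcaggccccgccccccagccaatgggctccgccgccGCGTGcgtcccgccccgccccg
Pgk1, chrX:106186850-106187099, plus strand: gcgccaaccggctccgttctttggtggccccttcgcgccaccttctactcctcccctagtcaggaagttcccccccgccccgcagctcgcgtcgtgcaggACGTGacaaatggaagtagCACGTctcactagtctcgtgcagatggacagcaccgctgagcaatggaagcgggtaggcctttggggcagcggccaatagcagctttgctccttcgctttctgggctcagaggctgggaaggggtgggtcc
The printed stretches hold 1 match for Slc2a1, 2 for Adm, 1 for Pdk1, 5 for Bnip3 and 2 for Pgk1. A match is only a match of letters, and no binding was measured here.

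The first question was what LPS did to these genes within 2 h in WT cells. Of 20 glycolysis genes, 3 rose (Slc2a1, Pfkp and Pfkfb3), 6 fell (Hk1, Hk3, Pfkfb4, Aldoc, Tpi1 and Pkm) and 11 did not pass the test. Of 17 tested hypoxia genes, 6 rose (Hif1a, Vegfa, Ndrg1, Adm, Ero1l and Hilpda), 7 fell (Egln1, Bnip3, Bnip3l, Pdk1, Ankrd37, Ddit4 and Mxi1) and 4 did not pass. The test was limma with Benjamini-Hochberg adjustment over all 10899 genes tested, with a call at an adjusted p under 0.05, and it called 67.3% of all genes, 13.7% higher and 53.6% lower. Hence 22 of 37 members called is below the share of all genes, while 9 of 37 higher is above it. The median change was -0.17 for the glycolysis genes, 0.06 for the hypoxia genes and -0.30 for all genes on the log2 scale.

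**Figure D1:**
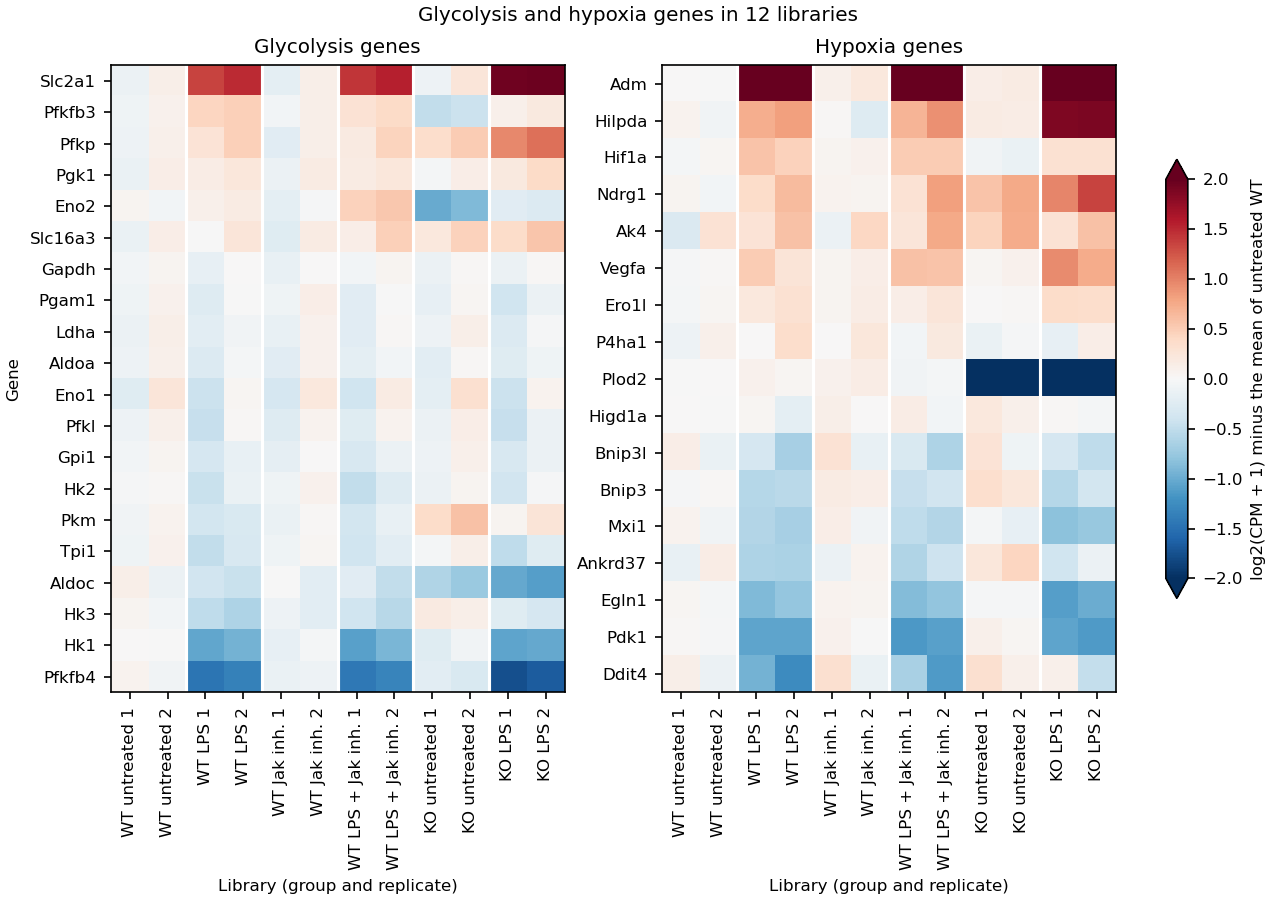
Level of each tested gene (rows) in each of the 12 libraries (columns, by group and replicate) as log2(CPM + 1) minus the mean of the untreated WT libraries; red is higher, blue is lower, and the colour scale ends at 2 in both directions. In the 6 LPS libraries Slc2a1 and Adm are the reddest rows and Pfkfb4, Pdk1 and Hk1 are blue, while Plod2 is blue in the 4 KO libraries.

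The transcripts of Slc2a1 and Hk1 moved in opposite directions. Slc2a1 encodes the glucose transporter GLUT1. It was at 106 and 125 CPM in untreated WT libraries and 295 and 324 CPM with LPS, and in KO libraries it went from 108 and 136 CPM to 446 and 453 CPM. Every LPS library lay above every library without LPS. The log2 change was 1.42 (SE 0.134, limma adjusted p = 9.73e-06) in WT, a 2.68-fold difference of mean CPM, and 1.89 (SE 0.134, adjusted p = 1.46e-06) in KO. The hexokinase Hk1, which traps glucose in the cell as its phosphate, was at 155 and 153 CPM in untreated WT libraries and 74.4 and 79.4 CPM with LPS. In KO libraries it was at 131 and 147 CPM and then 73.9 and 75.3 CPM. Its groups did not overlap, and it fell by 1.00 (SE 0.0816, limma adjusted p = 3.77e-06) in WT and by 0.88 in KO (adjusted p = 8.38e-06). Of the other hexokinases, Hk3 also fell, from 45.2 ± 2.72 to 30.3 ± 1.77 CPM in WT (mean ± SD, n = 2; limma adjusted p = 0.000177), and Hk2 gave 140 ± 2.68 and 115 ± 18.0 CPM, which did not pass (adjusted p = 0.101). Per kilobase of exon, untreated WT cells held Hk1, Hk2 and Hk3 at 18.1, 23.4 and 12.3 CPM, and WT cells with LPS held them at 9.01, 19.3 and 8.23 CPM. Hk2 was thus the highest of the hexokinases per length in both groups, with LPS libraries of 102 and 128 CPM before length correction.

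The next control point is phosphofructokinase, which commits sugar to glycolysis, and here the regulators parted. Pfkfb3 and Pfkfb4 both make and break fructose 2,6-bisphosphate, the activator of phosphofructokinase. Pfkfb3 was at 30.5 and 34.8 CPM in untreated WT libraries and 44.4 and 46.0 CPM with LPS, and in KO libraries at 22.8 and 23.9 CPM and then 35.2 and 37.5 CPM. It rose by 0.46 in WT (SE 0.0881, limma adjusted p = 0.00113) and by 0.62 in KO (adjusted p = 0.000167), with no overlap within a genotype. Pfkfb4 was at 27.9 and 25.2 CPM in untreated WT libraries and only 8.98 and 9.73 CPM with LPS, and in KO libraries at 22.9 and 21.4 CPM and then 7.15 and 7.72 CPM. Its change of -1.41 in WT (SE 0.0834, limma adjusted p = 4.69e-07) and -1.46 in KO (adjusted p = 3.71e-07) was the lowest among the glycolysis genes, and all LPS libraries lay below all others. The phosphofructokinase subunit Pfkp was at 103 and 119 CPM in untreated WT libraries and 134 and 155 CPM with LPS. KO libraries gave 142 and 158 CPM and then 216 and 238 CPM. Its rise was 0.37 in WT (SE 0.137, limma adjusted p = 0.0358) and 0.60 in KO (adjusted p = 0.00333), but the WT call ended without untreated WT replicate 1 (adjusted p = 0.206) or LPS replicate 2 (0.197). The liver-type subunit Pfkl was not called in any comparison. Its WT change was -0.21 by the CPM measure and 0.07 after rescaling by the median of gene ratios.

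Further down the pathway changes were small. Aldoc, the aldolase best known from brain, was at 67.5 and 57.1 CPM in untreated WT libraries and 47.3 and 45.2 CPM with LPS, and in KO libraries at 40.4 and 36.8 CPM and then 30.2 and 28.5 CPM. It fell by 0.42 in WT (limma adjusted p = 0.00861) and by 0.38 in KO (adjusted p = 0.0133), with no overlap within a genotype. Tpi1, triose phosphate isomerase, fell from 780 ± 66.1 to 586 ± 48.6 CPM in WT (adjusted p = 0.0104). Pkm, the pyruvate kinase that makes pyruvate, fell from 7581 ± 559 to 6006 ± 150 CPM in WT (limma adjusted p = 0.0405). These 3 falls depend on scaling: after median-of-ratios scaling their WT changes were -0.13, -0.12 and -0.05, and none was called. Each WT call was also lost without at least 1 single library (adjusted p of 0.0813 for Aldoc without untreated replicate 1, 0.0795 for Tpi1 without untreated replicate 2, and 0.197 for Pkm without untreated replicate 2). The remaining enzymes Gpi1, Aldoa, Gapdh, Pgk1, Pgam1, Eno1 and Ldha and the exporter Slc16a3 had WT changes of -0.25 to 0.19, and none was called. Under median-of-ratios scaling their WT changes were all positive, from 0.04 for Gpi1 to 0.48 for Pgk1. Only Pgk1 was then called in WT (limma adjusted p = 0.00986).

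Levels of the common enzymes carry an uncertainty from mapping. Many of them have processed copies elsewhere in the genome, and 28.59 to 34.92% of counted alignments were not unique and entered no gene. That share was 28.59 to 32.1% in WT libraries and 33.23 to 34.92% in KO libraries. Its part in differences between KO and WT was not tested. Eno1 stood at only 83.0 and 117 CPM in untreated WT libraries, while its near-identical copy Eno1b stood at 310 and 360 CPM. How reads were split between that pair was not tested, so the Eno1 level is uncertain. Per kilobase, untreated WT cells held Pkm at 1516 CPM, Ldha at 681 CPM, Pgk1 at 509 CPM, Pgam1 at 423 CPM and Aldoa at 307 CPM, against 32.9 CPM for Slc2a1 and 0.345 CPM for Eno2. These 5 enzymes were chosen as high ones; Eno1, Pfkl and Aldoc were at 18.6, 27.6 and 19.1 CPM per kilobase, below Slc2a1.

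**Figure D2:**
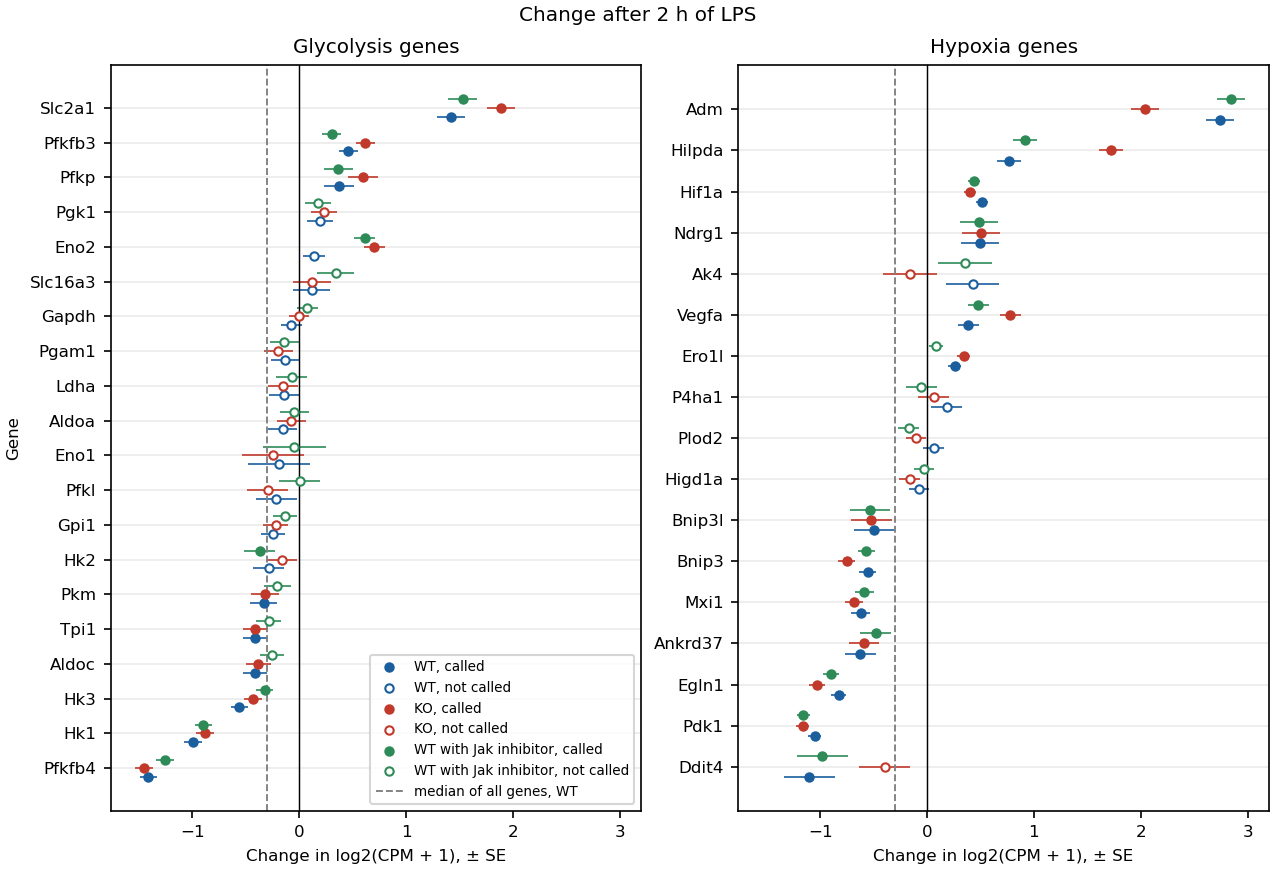
Change after LPS of each tested gene in WT cells (blue), KO cells (red) and WT cells with the Jak inhibitor in both arms (green), as difference of mean log2(CPM + 1) with its SE; filled points passed the test and the dashed line is the median of all tested genes in WT, -0.30. Slc2a1 leads the glycolysis genes at 1.42 in WT and Adm the hypoxia genes at 2.74, while Pfkfb4, Egln1 and Pdk1 lie to the left in all 3 comparisons.

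Hif1a and its sensor moved apart. Hif1a was at 161 and 170 CPM in untreated WT libraries and 245 and 228 CPM with LPS, at 171 and 175 CPM with the inhibitor and 235 and 236 CPM with both, and at 158 and 151 CPM in untreated KO libraries and 204 and 205 CPM with LPS. All LPS libraries exceeded all others, with a rise of 0.51 in WT (SE 0.0576, limma adjusted p = 3.13e-05) and 0.40 in KO (adjusted p = 0.00016). Egln1 encodes PHD2, the main prolyl hydroxylase acting on HIF-1 alpha. It was at 29.7 and 27.9 CPM in untreated WT libraries and 15.2 and 16.4 CPM with LPS, at 30.4 and 29.9 CPM with the inhibitor and 15.3 and 16.2 CPM with both, and at 28.2 and 28.4 CPM in untreated KO libraries and 12.9 and 13.9 CPM with LPS. The LPS libraries formed a separate low set, and Egln1 fell by 0.83 in WT (SE 0.0732, limma adjusted p = 6.35e-06) and by 1.03 in KO (adjusted p = 1.48e-06). Egln3, a hydroxylase that is itself a HIF target in many tissues, had 0 or 1 read in each library, too few to compare.

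Among the HIF targets in the list, Adm and Vegfa rose. Adm encodes the vessel-relaxing peptide adrenomedullin. It was at 0.101 and 0.100 CPM (4 reads each) in untreated WT libraries and 5.72 and 7.05 CPM (261 and 289 reads) with LPS. KO libraries went from 0.201 and 0.235 CPM (8 and 9 reads) to 4.54 and 3.53 CPM (163 and 151 reads). The groups lay far apart, and the fitted rise was 2.74 in WT (SE 0.129, limma adjusted p = 1.17e-07) and 2.04 in KO (adjusted p = 6.93e-07). Adm passed the filter only through its LPS libraries, so it had to differ, and the log2(CPM + 1) scale understates a change from so low a level. Vegfa, the vessel growth factor, was at 8.09 and 8.42 CPM in untreated WT libraries and 12.2 and 10.1 CPM with LPS, and in KO libraries at 8.47 and 8.84 CPM and then 16.7 and 14.5 CPM. It rose by 0.39 in WT (SE 0.100, limma adjusted p = 0.00644; 0.06 without LPS replicate 1) and by 0.78 in KO (adjusted p = 7.99e-05).

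Hilpda, Ero1l and Ndrg1 were also called higher in WT. Hilpda, a lipid droplet protein that blocks fat breakdown, was at 9.20 and 8.22 CPM in untreated WT libraries and 15.0 and 16.1 CPM with LPS. In KO libraries it went from 9.90 and 9.72 CPM to 34.5 and 34.9 CPM, above every WT library. Its change was 0.77 in WT (SE 0.113, limma adjusted p = 0.00019) and 1.72 in KO (adjusted p = 8.54e-07). Ero1l, an oxidase that helps proteins fold in the endoplasmic reticulum, rose from 97.4 ± 4.20 to 117 ± 5.52 CPM in WT (limma adjusted p = 0.00523; 0.0508 without untreated replicate 1). Ndrg1, a stress-responsive protein, was at 21.5 and 20.04 CPM in untreated WT libraries and 27.0 and 32.6 CPM with LPS, and in KO libraries at 31.3 and 35.6 CPM and then 41.9 and 54.4 CPM. It was called higher in both genotypes, by 0.50 in each (limma adjusted p = 0.0299 and 0.0283), but single libraries decided these calls. Without WT LPS replicate 2 the adjusted p was 0.172, without untreated WT replicates 1 or 2 it was 0.0681 or 0.117, and without KO LPS replicate 2 or untreated KO replicate 1 it was 0.20 or 0.14.

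Pdk1, Bnip3 and Bnip3l were called lower. Pdk1 encodes a kinase that holds back the oxidation of pyruvate in mitochondria. It was at 76.3 and 74.1 CPM in untreated WT libraries and 35.8 and 35.9 CPM with LPS. In KO libraries it was at 80.8 and 77.0 CPM and then 35.5 and 33.9 CPM. Its LPS libraries, with and without the inhibitor, ran from 33.4 to 35.9 CPM and its other libraries from 74.1 to 80.8 CPM. It fell by 1.05 in WT (SE 0.0614, limma adjusted p = 4.37e-07) and by 1.16 in KO (adjusted p = 2.21e-07). Bnip3, a receptor for removal of mitochondria, was at 24.1 and 24.8 CPM in untreated WT libraries and 16.2 and 16.5 CPM with LPS, and in KO libraries at 31.2 and 28.8 CPM and then 16.2 and 18.6 CPM. It fell by 0.55 in WT (limma adjusted p = 0.00018) and by 0.75 in KO (adjusted p = 2.31e-05), without overlap. Its relative Bnip3l fell from 58.0 ± 7.87 to 41.0 ± 6.69 CPM in WT (limma adjusted p = 0.0404), a call lost after median-of-ratios scaling (adjusted p = 0.335), without untreated WT replicate 1 (0.217) and without WT LPS replicate 2 (0.233).

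Mxi1, a repressor that opposes Myc, was at 69.5 and 63.2 CPM in untreated WT libraries and 44.0 and 41.6 CPM with LPS, and in KO libraries at 64.7 and 58.9 CPM and then 37.2 and 38.95 CPM. Ankrd37 was low throughout, at 2.00 and 2.70 CPM in untreated WT libraries and 1.18 and 1.15 CPM with LPS, and at 2.91 and 3.48 CPM in untreated KO libraries and 1.53 and 2.06 CPM with LPS. Both fell in WT, by 0.62 each (limma adjusted p = 0.00013 and 0.00327), and in KO, by 0.68 and 0.59. The KO call of Ankrd37 was lost with edgeR (adjusted p = 0.0593) and with DESeq2 (adjusted p = 0.122). Ddit4, an inhibitor of the growth kinase mTORC1 also called REDD1, was at 2.79 and 2.22 CPM in untreated WT libraries and 0.810 and 0.463 CPM with LPS, and in KO libraries at 3.38 and 2.74 CPM and then 2.75 and 1.52 CPM. It fell by 1.10 in WT (SE 0.238, limma adjusted p = 0.00232), whereas the KO change of -0.40 did not pass (adjusted p = 0.167). The WT groups did not overlap and the KO groups nearly met, at 2.75 and 2.74 CPM. P4ha1, a collagen hydroxylase, Higd1a, a mitochondrial protein, and Ak4, an adenylate kinase, had WT changes of 0.19, -0.07 and 0.43 and were not called. Plod2, with a WT change of 0.06, was not called either. Under median-of-ratios scaling P4ha1, Ak4 and Plod2 were called higher in WT, by 0.47, 0.70 and 0.31 (limma adjusted p = 0.0227, 0.0391 and 0.0182). The WT change of Higd1a was then 0.21 and was not called (limma adjusted p = 0.0802).

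In KO cells LPS gave similar counts. Of 20 glycolysis genes, 4 rose and 6 fell, and of 17 tested hypoxia genes 6 rose and 6 fell, where 66.7% of all genes were called, 13.9% higher and 52.7% lower. The medians were -0.18 and -0.16, against -0.29 for all genes. Beside the genes named above, Eno2, the neuronal enolase, went from 0.301 and 0.418 CPM (12 and 16 reads) to 1.25 and 1.17 CPM (45 and 50 reads) in KO libraries. That rise of 0.70 was called (SE 0.100, limma adjusted p = 0.00016). WT libraries were at 1.72 and 1.52 CPM untreated and 1.82 and 1.95 CPM with LPS, a change of 0.14 that was not called (adjusted p = 0.25). Under median-of-ratios scaling Eno2 was called higher in both, by 0.32 in WT and 0.82 in KO (limma adjusted p = 0.0194 and 7.22e-05). That scaling also called Pgk1 and Gapdh higher in KO, by 0.51 and 0.27 (limma adjusted p = 0.00715 and 0.0461). Median-of-ratios scaling ended the KO calls of Hk3, Aldoc, Tpi1, Pkm and Bnip3l, with limma adjusted p of 0.0907, 0.385, 0.378, 0.797 and 0.261, and for the last 4 leaving out single KO libraries did so too.

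The glycolytic enzymes and the other HIF targets can be set side by side. Under CPM scaling 9 of 20 glycolysis genes and 13 of 17 hypoxia genes were called in WT, and under median-of-ratios scaling 8 of 20 (5 higher and 3 lower) and 15 of 17 (9 higher and 6 lower), where 58.8% of all genes were called, 26.4% higher and 32.5% lower. Under that scaling the WT medians became 0.11 for glycolysis and 0.31 for hypoxia genes. In KO the same scaling gave 6 higher and 2 lower among glycolysis genes and 6 higher and 5 lower among hypoxia genes, where 59.8% of all genes were called, 26.7% higher and 33.1% lower. The KO medians became 0.10 for glycolysis and 0.11 for hypoxia genes. Slc2a1, Hk1, Hk3, Pfkp, Pfkfb3 and Pfkfb4 kept their WT call under both scalings, as did every hypoxia gene called under CPM scaling except Bnip3l. With the replicate number as a block 17 of 20 glycolysis genes (4 higher and 13 lower) and 15 of 17 hypoxia genes were called, where 80.8% of all genes were, so the difference in called shares depends on that choice. No group moved as a whole in 1 direction in these fits, and no test of the difference between the groups was made.

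The next question was whether the Jak kinases, which pass on interferon signals, take part in these changes. The inhibitor alone called 0 of 37 members and 0% of all genes with limma, with 0 members at an unadjusted p under 0.05. The largest absolute change of a member was 0.16. edgeR and DESeq2 also called 0, with 1 and 0 members at an unadjusted p under 0.05. LPS with the inhibitor against LPS alone called 0 of 37 members and 1.11% of all genes with limma, with 1 member at an unadjusted p under 0.05 (Eno2, 0.37, adjusted p = 0.239). edgeR and DESeq2 called 0 there as well, with 1 and 0 members at an unadjusted p under 0.05.

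With the inhibitor present in both arms, LPS changed these genes too. Of 20 glycolysis genes 4 rose and 4 fell, and of 17 hypoxia genes 5 rose and 7 fell, where 64.2% of all genes were called, 13.5% higher and 50.8% lower. The medians were -0.06 for each group, against -0.27 for all genes. Median-of-ratios scaling turned both medians positive, to 0.20 each, against -0.03 for all genes. With this rescaling LPS raised 7 members of the glycolysis list and lowered 2. In the hypoxia list it raised 6 and lowered 5. The background was then 58.8% called, 26.4% upward and 32.5% downward. Slc2a1 was at 100 and 125 CPM with the inhibitor and 311 and 340 CPM with both agents, a rise of 1.53 (limma adjusted p = 6.37e-06). Adm was at 0.180 and 0.270 CPM with the inhibitor and 8.42 and 7.18 CPM with both, and Hilpda at 8.89 and 7.13 CPM and then 14.6 and 17.4 CPM. Those rises were 2.84 and 0.92 (limma adjusted p = 9.57e-08 and 6.38e-05), each with no overlap between the groups. Adm passed the filter only through LPS libraries, so it had to differ here too. Pdk1 was at 80.0 and 75.1 CPM with the inhibitor and 33.4 and 35.1 CPM with both, a fall of 1.16 (limma adjusted p = 2.52e-07). Pfkfb4 was at 23.97 and 24.6 CPM and then 9.25 and 9.97 CPM, a fall of 1.25 (adjusted p = 1.04e-06). Eno2 was at 1.29 and 1.59 CPM and then 2.63 and 2.82 CPM, and here its rise of 0.61 was called (limma adjusted p = 0.000433). Ero1l, at 105 ± 4.82 and 111 ± 5.60 CPM, was not (adjusted p = 0.292). Under median-of-ratios scaling Ero1l was called higher, by 0.34 (limma adjusted p = 0.00203). So were Gapdh, Pgk1 and Slc16a3, by 0.33, 0.43 and 0.60 (limma adjusted p = 0.0207, 0.0161 and 0.0177). The calls of Hk2, Hk3, Bnip3l and Ankrd37 in this comparison were lost after median-of-ratios scaling, with limma adjusted p of 0.543, 0.453, 0.207 and 0.092. Those of Pfkp, Pfkfb3 and Ndrg1 were lost without replicate 1 of the inhibitor (0.285, 0.105 and 0.0905) or replicate 2 of both agents (0.241, 0.0749 and 0.28).

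**Figure D3:**
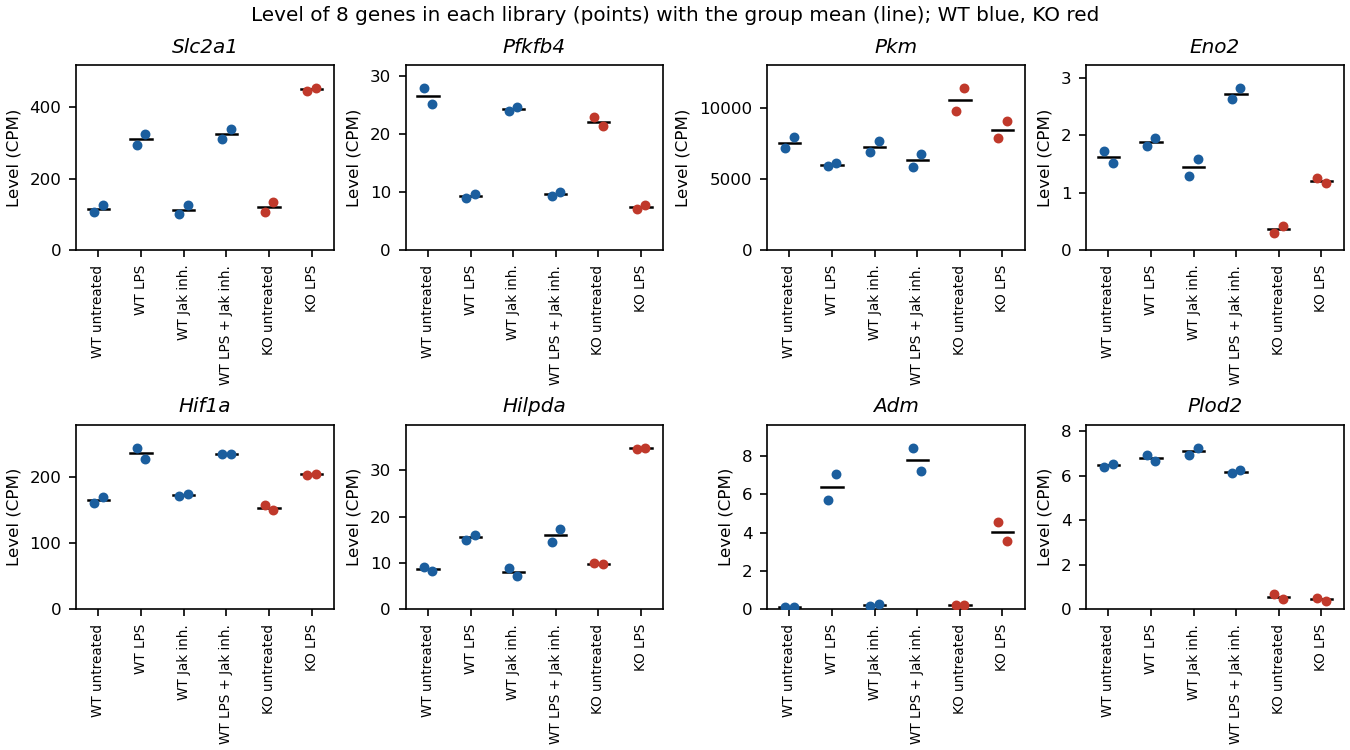
Level in CPM (linear axis from 0) of 8 genes in each library: points are the 2 libraries of a group, lines are group means, WT is blue and KO red. Slc2a1 and Hilpda are highest in KO libraries with LPS, Hif1a is high in all 6 LPS libraries, Pkm is highest in untreated KO libraries, and Plod2 is below 1 CPM in all 4 KO libraries.

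The other comparison of the design was KO with WT. In untreated cells 6 of 37 members were called, 2 higher (Pkm and Ndrg1) and 4 lower (Pfkfb3, Aldoc, Eno2 and Plod2), where 9.68% of all genes were called, 4.31% higher and 5.37% lower. The glycolysis median was 0.00 and the hypoxia median 0.09, against -0.01 for all genes. Plod2, a lysyl hydroxylase that prepares collagen for cross-links, was at 6.39 and 6.52 CPM in untreated WT libraries and 0.677 and 0.444 CPM in untreated KO libraries. With LPS it was at 6.92 and 6.66 CPM in WT and 0.529 and 0.375 CPM in KO, and with the inhibitor, without and with LPS, at 6.91, 7.25, 6.10 and 6.25 CPM. KO cells held 8.68% of the WT level untreated and 6.65% with LPS, with changes of -2.26 (SE 0.0975, limma adjusted p = 1.48e-06) and -2.43 (adjusted p = 7.25e-07). Plod2 passed the filter only through its WT libraries, so it had to differ. Since the labels do not give the number of KO clones, a difference of 1 clone and an effect of Parp14 loss cannot be told apart for any of these genes.

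Regulators and enzymes differed in both directions. Pfkfb3 was lower in untreated KO cells by a difference of -0.46 (limma adjusted p = 0.00959), a call that was lost without untreated WT replicate 2 (0.0856) or untreated KO replicate 1 (0.0742). Ndrg1 was higher by 0.66 (limma adjusted p = 0.0441), a call that was lost without any 1 of the 4 libraries (0.109 to 0.227). Eno2 gave 12 and 16 reads in untreated KO libraries (0.301 and 0.418 CPM) against 1.72 and 1.52 CPM in WT. It was lower by the fitted difference of -0.95 (SE 0.100, limma adjusted p = 0.00031), and -0.38 with LPS (adjusted p = 0.0316). Aldoc was lower in KO libraries of either treatment, as its values above show, by differences of -0.67 (SE 0.114, limma adjusted p = 0.00505; 0.0538 without untreated WT replicate 1) and -0.64 (adjusted p = 0.00478). Pkm was at 7186 and 7977 CPM in untreated WT libraries and 9811 and 11407 CPM in untreated KO libraries. With LPS it was at 5900 and 6112 CPM in WT and 7876 and 9092 CPM in KO, again with no overlap. Its differences of 0.48 and 0.49 were called (limma adjusted p = 0.0429 and 0.03), but leaving out any 1 library ended each call, with adjusted p of up to 0.272 and 0.182. The summed level of the macrophage markers was 12456 to 14816 CPM in untreated KO libraries and 13381 to 15247 CPM in untreated WT libraries, and 11428 to 12577 CPM and 13503 to 13692 CPM with LPS; its part in these differences was not tested, and in such bulk samples fewer cells of a kind and less RNA per cell cannot be told apart.

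With LPS, 14 of 37 members were called between KO and WT, 7 higher and 7 lower, where 13.9% of all genes were called, 6.19% higher and 7.66% lower. Higher in KO were Slc2a1 (0.54, limma adjusted p = 0.0259), Pfkp (0.66, 0.0111), Pkm, Vegfa (0.45, 0.0145), Ndrg1 (0.67, 0.0329), Ddit4 (0.92, 0.0307) and Hilpda. Lower were Pfkfb3 (-0.31, limma adjusted p = 0.0467), Pfkfb4 (-0.30, 0.0435), Aldoc, Eno2, Hif1a (-0.21, 0.0393), Adm (-0.55, 0.0189) and Plod2. Hilpda differed by 1.11 (SE 0.113, limma adjusted p = 0.000203). The medians were 0.02 for glycolysis and 0.07 for hypoxia genes, against 0.00 for all genes. In the 4 fits that each left out 1 of these LPS libraries the count of members called fell, and so did the count of all genes called. Leaving out 1 untreated library lowered both counts in the untreated comparison as well. With LPS, the calls of Hilpda, Plod2 and Aldoc remained in each of those 4 fits. For the 7 members called higher, both KO libraries with LPS exceeded both WT libraries with LPS. These genes were picked by that same comparison, so the lack of overlap adds no support. The share of all tested genes without overlap was not counted.

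**Figure D4:**
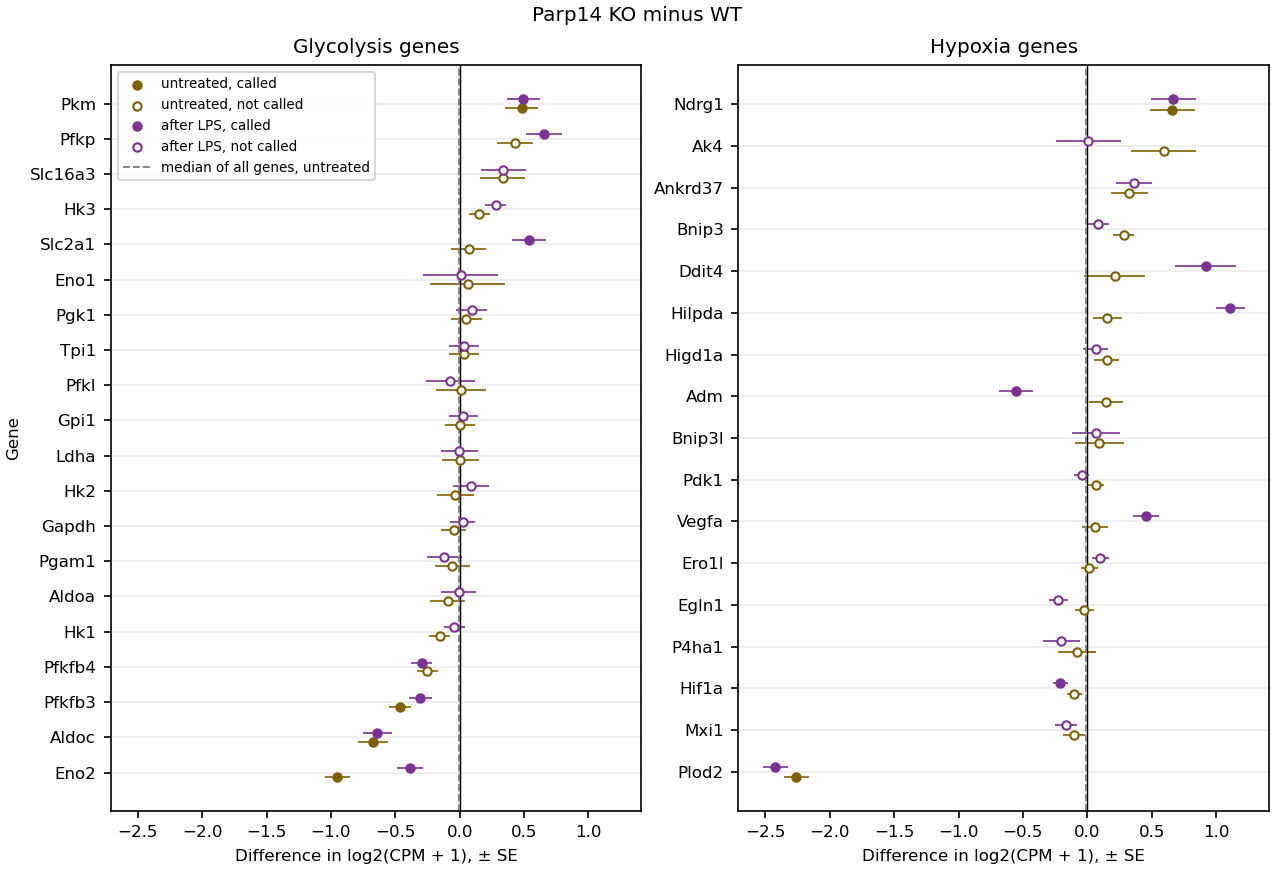
Difference between KO and WT cells of each tested gene, untreated (brown) and with LPS (purple), as difference of mean log2(CPM + 1) with its SE; filled points passed the test. Most genes sit near 0, Plod2 lies at -2.26 and -2.43, and Hilpda, Ddit4, Adm and Slc2a1 are filled with LPS only, which is no test that the 2 differences differ.

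Whether the LPS response itself differed between genotypes was tested by an interaction term. It called 1 of 37 members, Hilpda, where 0.413% of all genes were called, 0.128% higher and 0.284% lower. Hilpda's response was larger in KO by 0.95 (SE 0.160, limma adjusted p = 0.0441). This call was lost without any 1 of the 8 libraries in it, with adjusted p of 0.0942 to 0.193. The next largest differences in response were -0.70 for Adm (SE 0.183, limma adjusted p = 0.244), 0.71 for Ddit4 (SE 0.337, adjusted p = 0.897), -0.58 for Ak4 (adjusted p = 1), 0.57 for Eno2 (SE 0.141, adjusted p = 0.211) and 0.47 for Slc2a1 (SE 0.190, adjusted p = 0.70). None of these passed, so a difference in response was not shown for Slc2a1 or Adm. Ak4 libraries were at 16.0 and 24.3 CPM in untreated WT, 24.02 and 30.0 CPM in WT with LPS, 27.1 and 33.7 CPM in untreated KO and 24.4 and 30.0 CPM in KO with LPS.

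Neighbouring lists were examined for context. Among 14 tested partners and regulators of HIF, 2 rose and 6 fell with LPS in WT, where 13.7% of all genes rose and 53.6% fell: Cited2, an inhibitor of HIF that competes for its coactivator, went from 325 to 531 CPM (0.70, limma adjusted p = 0.00262), and that coactivator, Ep300, from 153 to 84.7 CPM (-0.85, adjusted p = 0.000752). Arnt, the partner subunit, fell by 0.37 (adjusted p = 0.000293), and Vhl, which marks HIF-1 alpha for destruction, by 0.32 (adjusted p = 0.0098). The falls of Arnt and Vhl are close to the shift of all genes, and after median-of-ratios scaling neither was called lower. The list then had 5 higher and 1 lower, where 26.4% of all genes were higher and 32.5% lower, so its balance of directions depends on scaling. Between KO and WT limma called 0 of the 14 in either treatment, with 1 gene at an unadjusted p under 0.05 in each, and edgeR and DESeq2 gave the same counts. Of all genes limma called 9.68% untreated and 13.9% with LPS, so few calls were to be had among 14 genes.

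Of 26 further tested HIF targets, 5 rose and 13 fell in WT, and 8 each way after median-of-ratios scaling, both near the shares of all genes (13.7% and 53.6%, then 26.4% and 32.5%). The risers included Edn1, the vessel-constricting peptide endothelin (0.0632 to 15.4 CPM, 3.94, limma adjusted p = 9.07e-09), and Nos2, the inducible nitric oxide synthase (0.0755 to 12.6 CPM, 3.62, adjusted p = 2.12e-07). Edn1 and Nos2 passed the filter only through their LPS libraries. Angptl4, an inhibitor of lipoprotein lipase, fell by 2.78 in WT, from 10.8 to 0.717 CPM (limma adjusted p = 3.96e-08), so its WT mean with LPS was under the filter's 1 CPM. Between KO and WT, 4 of the 26 further targets were higher and 3 lower untreated, and 5 were higher and 3 lower with LPS. Of all genes 9.68% were called untreated and 13.9% with LPS. Stc2, a secreted glycoprotein, was higher in KO by 1.72 untreated and 2.02 with LPS (limma adjusted p = 1.43e-05 and 5.27e-06).

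Further enzymes around glycolysis were read against the 53.6% of all genes that fell in WT by the CPM measure (32.5% after median-of-ratios scaling). Of 15 other tested enzymes and transporters of glycolysis and gluconeogenesis, 1 rose and 13 fell in WT (1 and 8 after median-of-ratios scaling). The riser was Slc2a6, a hexose transporter (157 to 238 CPM, 0.61, limma adjusted p = 0.00781), while Slc2a3, the transporter GLUT3, fell from 52.3 to 32.2 CPM (-0.69, adjusted p = 9.4e-05). Of 14 tested genes of pyruvate and lactate handling, 9 fell and 5 did not pass, and of 10 tested genes of the pentose phosphate pathway 7 fell and 3 did not pass. After median-of-ratios scaling the first list had 1 higher and 3 lower, and the second 1 higher and 2 lower. Shpk, the sedoheptulose kinase of the pentose phosphate pathway, fell by 1.47, from 4.24 to 0.899 CPM (limma adjusted p = 5.52e-06), so its WT mean with LPS was under the filter's 1 CPM. Pdp1, the phosphatase that undoes the action of Pdk1, fell by 1.00, from 16.0 to 7.47 CPM (adjusted p = 9.78e-05). Between KO and WT, 1 of the 15 enzymes and transporters was higher and 4 lower untreated, and 2 were higher and 4 lower with LPS. In the pyruvate and lactate list 1 gene was higher and 0 lower in either treatment. In the pentose phosphate list 0 were higher and 1 lower untreated, and 0 higher and 3 lower with LPS. Of all genes 9.68% and 13.9% were called.

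The glycolysis genes also varied together between libraries of the same group. In 15 of 20 of them replicate 2 was higher than replicate 1 in all 6 groups, and in 2 (Hk3 and Aldoc) it was lower in all 6. Over all tested genes 19.6% were higher in replicate 2 in every group and 22.4% lower. Among the 17 tested hypoxia genes 2 were higher in every group (P4ha1 and Ak4) and 3 lower (Bnip3l, Higd1a and Ddit4). Among the 37 genes the largest mean difference was 0.52, for Eno1, on the log2 scale. The SE of a change was 0.293 for Eno1, against 0.0614 for Pdk1 and 0.0576 for Hif1a, so a change of Eno1 had to be larger to pass. The labels do not say what the replicate numbers stand for.

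**Figure D5:**
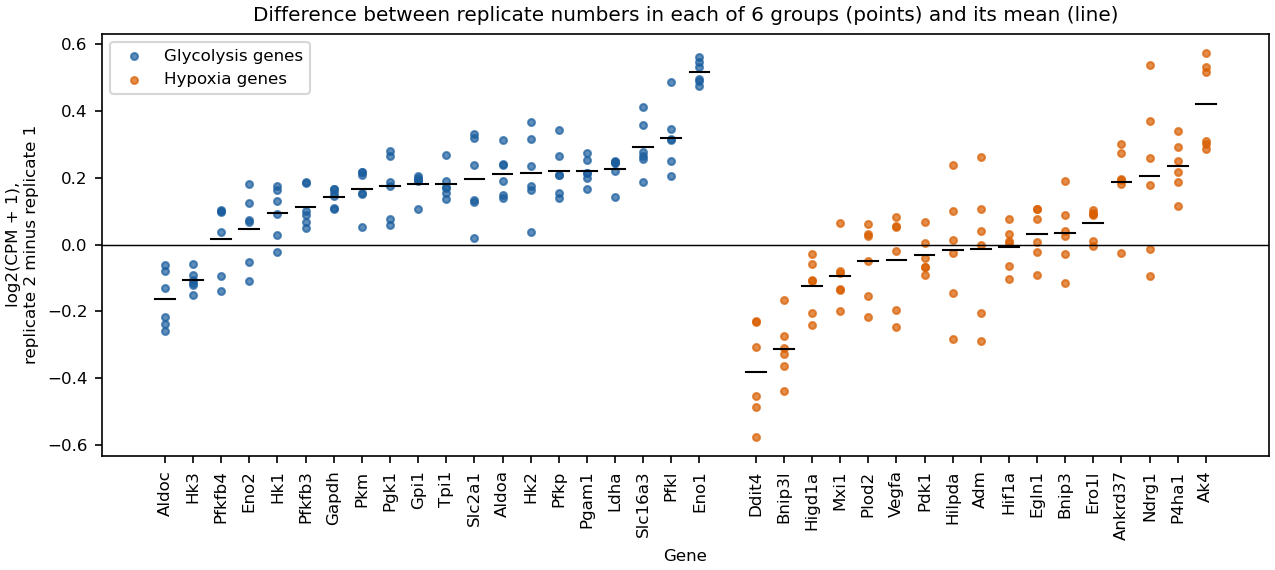
Difference in log2(CPM + 1) between replicate 2 and replicate 1 in each of the 6 groups (points) with its mean (line), for glycolysis genes (blue) and hypoxia genes (orange). In 15 of 20 glycolysis genes and 2 of 17 hypoxia genes all 6 points lie above 0.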

How the data were processed

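mRNA libraries were made with a TruSeq RNA kit from 12 samples of total RNA, per the labels' protocols. The submitters' processing notes name TopHat2 2.1.0, HTSeq and edgeR with build mm10 (GRCm38). Neither annotation nor strand setting was given in the sources used here. The deposited table holds CPM by the authors, scaled to all counted alignments, summary lines included, as the values show. Counted alignments were 57072275 to 74239012 a library, of which 58.95 to 64.06% lay in genes, 28.59 to 34.92% were not unique, 4.997 to 6.374% had no feature and 0.9944 to 1.129% were ambiguous. Values were whole multiples of 1 read within 0.02 reads for 100% of entries, and the recovered reads were used for edgeR 4.0.16 and DESeq2 1.42.0 as alternatives. Another 4 columns of values matched no labelled sample and were not used.

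CPM was rescaled to gene reads and tested as log2(CPM + 1) with limma 3.58.1 (trend, 6 group means, 12 libraries), for genes of at least 1 CPM in at least 2 libraries, with Benjamini-Hochberg adjustment over 10899 genes. A fold on this scale understates changes of low genes. The same code was tested on simulated data. Libraries of a group correlated at 0.9952 to 0.997 across genes and differed beyond counting noise, so none was the same library counted again; repeat preparations of 1 culture cannot be told apart from separate cultures. Members with a called change of at least 0.58, Hif1a, Egln1 and Egln3 are given for each library; of the neighbouring lists up to 4 called genes are named, and 1 gene is not reported here. Pkm, Ak4 and Eno1 were named in more detail after their values were seen. Members and lists were chosen with earlier results of these data known. Exon lengths come from GENCODE M21 and promoters from RefSeq. Alternatives were another pseudocount, other filters, median-of-ratios scaling, a replicate block, fits of the compared groups only, edgeR, DESeq2, a 2-fold limit and leaving out each library.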

Additional observations from a re-analysis of the deposited data

Results flagged for a closer look

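One result stands out because the effect of LPS differed between genotypes by a test of the difference itself. The LPS response of Hilpda, the lipid droplet protein, was larger in KO than in WT cells by 0.95 on the log2(CPM + 1) scale (SE 0.160, n = 2 libraries in each of 4 groups, limma interaction adjusted p = 0.0441). Both KO libraries with LPS (34.5 and 34.9 CPM) were above both WT libraries with LPS (15.0 and 16.1 CPM), and the untreated libraries of the genotypes lay between 8.22 and 9.90 CPM. The adjusted p ran from 0.000268 with DESeq2 to 0.193 without untreated WT replicate 1, and was 0.0892 with edgeR. Groups of 2 libraries are too small for the search for single outlying libraries.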

How the results depend on the processing

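Of 85 calls of single members over the comparisons, 47 were kept in each of the settings run, the 2-fold limit aside, and no direction of a called member reversed. Treating replicate numbers as a block (replicate block) gave 32, 32 and 28 members called for LPS in WT, in KO and with the inhibitor, against 22, 22 and 20 without it. With the block 80.8, 80.5 and 78.1% of all genes were called in those comparisons. It gave 14 instead of 6 for KO against WT untreated, 21 instead of 14 with LPS and 5 instead of 1 for the interaction, where Slc2a1 (adjusted p = 0.00812), Adm, Ddit4 and Ak4 were added, and called 24.6, 31.5 and 3.79% of all genes there, against 9.68, 13.9 and 0.413% without it. Deviations of libraries with the same number correlated at 0.468 to 0.737 over 15 pairs of groups (median 0.622), but the labels tie the numbers to nothing, and with 2 numbers the pairing cannot be checked further.

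A 2-fold limit left 5, 6 and 4 members for LPS in WT, in KO and with the inhibitor, 1 for KO against WT untreated, 2 with LPS and 0 for the interaction. Of all 10899 genes it left 1733, 1760 and 1635 for LPS, 173 and 214 for KO against WT, and 34 for the interaction. With no filter 4 were called for KO against WT untreated and 8 with LPS, and with the compared groups alone 5 with LPS. Without the filter 524 of 17115 genes were higher and 552 lower untreated, and 678 higher and 771 lower with LPS. With the compared groups alone 396 of 10471 genes were higher and 472 lower with LPS. On the recovered reads edgeR called 6474 and 6516 of all genes for LPS in WT and KO (23 and 18 members). It called 1009 and 1511 for KO against WT without and with LPS (6 and 14 members). DESeq2 called 6543 and 6500 of all genes for LPS in WT and KO (25 and 20 members). For KO against WT it called 1234 and 1682 (8 and 14 members). For the interaction the smaller pseudocount, no filter, the 5 CPM filter and edgeR each gave 0 members. In that order they called 6, 29, 7 and 4 of all genes higher and 13, 47, 23 and 6 lower. Leaving out each library in turn gave 16 to 19 calls for LPS in WT, 19 to 20 in KO, 15 to 19 with the inhibitor, 3 to 4 for KO against WT untreated, 4 to 6 with LPS and 0 for the interaction; the lone library of a group was then assumed to vary like the other groups. The cause of these shifts was not tested. Comparisons of the inhibitor with its control called 0 members in each setting run. Egln3 and P4ha2, with 0 or 1 read in each library, could not be compared.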
